A study of Mus musculus with 5 samples.

Results

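The genes described here were 5 keratins, Krt13, Krt4, Krt6a, Krt6b and Krt16, of the 21947 genes counted in the treated libraries. They were chosen by name, as keratins of the upper and the stressed layers of stratified epithelium, with earlier results of these data known. All 5 were detected in every treated library. The study profiled colonic tumors of WT mice induced with azoxymethane and dextran sodium sulfate (AOM/DSS), a model of inflammation-driven colorectal cancer, by inDrop single-cell RNA sequencing under the chemotherapeutic agents 5FU and Irinotecan. The early group held day 1 replicate 1 and day 1 replicate 2, and the late group held day 3 and day 6. All 4 libraries carry the label normal dissociation and all came from treated, tumor-bearing animals, so none of them is an untreated control. Another library, of untreated WT colon dissociated for fibroblasts, stood beside them as normal tissue. The labels give neither the age nor the strain of the animals, and the methods name a mixed and a pure background without saying which library came from which. The methods place the harvest after the last treatment cycle, without naming the dose from which the days were counted. The single index design was used for day 1 replicate 1 and for day 3, the dual index design for the other two treated libraries.

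Keratins are the intermediate filament proteins of epithelial cells, and each filament pairs an acidic type I keratin with a basic type II keratin. In stratified squamous epithelium the basal cells make Krt5 with Krt14, and cells that leave the basal layer of an internal, non-cornified lining such as the esophagus make Krt4 with Krt13. Krt6a and Krt6b, with their partner Krt16, are kept low in resting skin and are switched on at wound edges and in inflamed or hyperproliferative epithelium. The columnar epithelium of the colon is built on Krt8, Krt18, Krt19 and Krt20 and is not known for any of the 5 keratins.

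All 5 genes lie on the minus strand of the type I and type II keratin clusters (GRCm38, GENCODE vM21). The type I genes are Krt13 at chr11:100117327-100121566 and Krt16 at chr11:100246091-100248902, each with 8 exons. The type II genes are Krt4 at chr15:101918535-101924735, Krt6a at chr15:101689910-101694307 and Krt6b at chr15:101676023-101680287, each with 9 exons. Krt6b and Krt6a are neighbours, 9622 bases apart, and 97.6% of their aligned coding bases are identical, against 73.0% of their 3′ untranslated regions and 64.6% of the last 300 bases of the transcripts, where a 3′ library collects most reads. Among the other pairs of the 5 genes, none exceeded 71.1% identity in the coding sequence. The last 42 coding bases of both genes are shown because they carry the last coding differences before the 3′ untranslated region. The 6 positions at which they differ are in capitals (Krt6a at chr15:101690467-101690508 and Krt6b at chr15:101676529-101676570, minus strand).
Krt6a: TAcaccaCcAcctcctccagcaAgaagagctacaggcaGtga
Krt6b: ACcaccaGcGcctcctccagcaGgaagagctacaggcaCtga
How the authors' counting treated reads that match both genes was not stated, so the split of UMIs between Krt6a and Krt6b is uncertain.

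Of the 5 promoters, only that of Krt13 was in the RefSeq table used here (GRCm38.p6). Its 250 bases before the transcription start are shown (chr11:100121567-100121816, minus strand). They were picked because Krt13 was higher in both late than in both early libraries, in the Krt5/Krt14-positive cells defined below. This order was found for 15.3% of the genes tested, and the late to early test did not call Krt13. Matches to the motifs searched are in capitals.
Krt13 promoter: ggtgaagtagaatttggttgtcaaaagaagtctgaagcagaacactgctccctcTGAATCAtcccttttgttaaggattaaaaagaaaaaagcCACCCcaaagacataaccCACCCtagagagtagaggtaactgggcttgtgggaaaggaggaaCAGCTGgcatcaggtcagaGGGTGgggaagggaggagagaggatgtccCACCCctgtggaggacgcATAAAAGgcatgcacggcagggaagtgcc
It holds 1 match to the AP-1 pattern TGANTCA, searched loosely with any base at its centre (here A). Of the 32851 promoters of the same length in the table, 6.75% hold a match to this loose pattern. The CACCC letters that Klf factors bind occur 3 times on the gene's strand and 1 time on the other, and 52.0% of promoters hold them on either strand. The E-box CAGCTG occurs 1 time (13.0% of promoters). The canonical TATAAA does not occur in the window (12.4% of promoters), and a TATA-like ATAAAAG lies at position -29 (4.83% of promoters), a motif that was added after the sequence had been read.

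The cells that could carry these keratins were found without using them. A cell was called Krt5/Krt14-positive where Krt5 and Krt14 made up a larger share of its UMIs than in 99% of the haematopoietic cells of the same library, and where the cell held at least 2 UMIs of the pair. Haematopoietic cells are not known for a keratin program and were taken as a measure of free RNA in the droplets. The cells kept numbered 748 and 2403 in the day 1 replicates, 1419 on day 3 and 2826 on day 6, with median depths of 2903 to 3601 UMIs. Of these, 79, 139, 64 and 674 were positive, 956 in all, and 852 of the 956 lay in 5 clusters named squamous-like from basal and squamous markers. The others lay in columnar-like (62), Paneth-like (17), haematopoietic (14) and other clusters (11). In day 1 replicate 1 only 50 of the 79 lay in squamous-like clusters, with 17 in Paneth-like and 9 in columnar-like ones. All 9 squamous markers had UMIs in the positive cells of every library, at a summed 14477 to 31892 CPM (UMIs of the gene scaled to 1000000 UMIs of the class), against 504 to 1595 CPM in columnar-like cells. The 9 include Krt5 and Krt14, at 4436 to 7560 and 6717 to 20170 CPM in the positive cells. These genes selected the cells and made up most of each sum, so the gap was largely set by the selection. The 10 columnar markers summed to 3003 to 4196 CPM in the positive cells against 10516 to 17563 CPM in the columnar-like cells and 3663 to 8020 CPM in the haematopoietic cells. The 7 neutrophil markers summed to 47.9 to 449 CPM and the 7 fibroblast markers to 128 to 389 CPM in the positive cells, and the part of these cells in the results was not tested.

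The limit for a positive cell was uneven between libraries. It stood at 0.179% and 1.10% of UMIs in the day 1 replicates, 1.24% on day 3, where only 34 haematopoietic cells set it, and 0.653% on day 6. In day 1 replicate 2 the median haematopoietic share was 0.0362% and the 95th percentile 0.164%. A few high haematopoietic cells thus set the limit there, and whether they were doublets was not tested. Without likely doublets 200 cells of that library were positive. The limit took in 98.0%, 70.1%, 21.4% and 84.3% of the squamous-like cells, which numbered 51, 187, 280 and 725. In day 1 replicate 1, where it was lowest, the 29 positive cells outside these clusters held 857 CPM of Krt13, against 4332 CPM in the 50 inside. Each level below is therefore also given for all squamous-like cells where the 2 definitions gave another order. The columnar-like, haematopoietic and other cell classes outside the squamous-like clusters hold only cells that were not positive. This lowers their levels: Krt6a in haematopoietic cells of day 1 replicate 2 was at 560 CPM, and at 689 CPM with the positive cells counted in. Cells of different libraries shared 7 to 41 barcodes per pair of treated libraries, and 326 cells with at least 2 UMIs of the pair lay between 80% and 125% of the limit, 156 of them positive.

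Krt13, the type I keratin of the suprabasal layers, stood at 3660 CPM in the positive cells of day 1 replicate 1 and 2197 CPM in those of day 1 replicate 2. On day 3 it stood at 6376 CPM and on day 6 at 5743 CPM. Both late libraries were above both early ones, as in 15.3% of the genes tested. The exact Poisson interval of each level, which covers counting error only, was narrow beside these gaps (6067 to 6698 CPM on day 3). In columnar-like cells Krt13 was at 295, 117, 859 and 878 CPM in the same order, so that the positive cells held 12.4, 18.7, 7.42 and 6.54 times the columnar level. The haematopoietic cells, which stand for free RNA, were at 346, 74.9, 1316 and 1130 CPM. Krt13 in columnar-like cells thus lay below the haematopoietic level in CPM in 3 of the 4 libraries and above it in day 1 replicate 2. The 2 classes differed in depth. In day 1 replicate 1 the median was 5479 UMIs in columnar-like and 2499.5 in haematopoietic cells, and on day 6 it was 2134 and 2438. How depth bears on this comparison, here and for the keratins below, was not tested.

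Krt4, the type II partner of Krt13, followed another course in the early libraries. It was at 368 CPM in the positive cells of day 1 replicate 1 and at 26.4 CPM (interval 16.9 to 39.3) in day 1 replicate 2, from 24 UMIs in 139 cells. The late libraries were at 867 CPM (day 3) and 1357 CPM (day 6). Both late libraries again lay above both early ones, as in 15.3% of the genes tested. On the log2 scale, however, the day 1 replicates were farther apart from each other than either late library was from day 1 replicate 1. Columnar-like cells held 68.4, 59.7, 179 and 251 CPM and haematopoietic cells 80.3, 33.5, 194 and 351 CPM. The positive cells exceeded the columnar-like ones 5.37, 4.85 and 5.41 times in day 1 replicate 1, day 3 and day 6, and held 0.442 times the columnar level in day 1 replicate 2. There Krt4 in positive cells was at the level of free RNA, and 4 of 8 other cell classes were above it. Summed over its positive cells, day 1 replicate 2 thus had Krt13 well above background and its partner Krt4 not detectably so. The 14 of these 139 cells with the most Krt13 held 93.1% of its UMIs.

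Krt6a, a stress keratin with Krt16 as its partner, stood at 8600 and 17626 CPM in the positive cells of the early libraries. It stood at 12179 CPM on day 3 and 6340 CPM on day 6, so the early and late values overlapped. Columnar-like cells were at 384, 327, 604 and 835 CPM and haematopoietic cells at 651, 560, 869 and 1120 CPM, above the columnar-like cells in each library. The positive cells held 22.4, 53.9, 20.2 and 7.59 times the columnar level, lowest on day 6.

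Krt6b, its near-identical neighbour, was at 1166 and 7070 CPM in the early libraries and at 1986 and 1709 CPM on day 3 and day 6. Day 1 replicate 2 stood apart from the other 3 libraries, which were close to each other, and the groups overlapped. Columnar-like cells were at 91.2, 68.3, 164 and 180 CPM, and the ratio of positive to columnar cells was 12.8, 104, 12.1 and 9.51. In every library the haematopoietic level (148, 142, 378 and 247 CPM) was above the columnar one.

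Krt16, the type I partner of the Krt6 keratins, was at 224 and 2243 CPM in the early libraries and at 494 and 107 CPM on day 3 and day 6. Day 1 replicate 2 was again the highest and day 6 the lowest. Outside the positive cells it was scarce: columnar-like cells held 12.2, 14.1, 19.5 and 6.61 CPM, and haematopoietic cells held 4.12, 23.9, 22.9 and 5.96 CPM from 2, 45, 2 and 10 UMIs. The positive cells held 18.3, 159, 25.4 and 16.2 times the columnar level.

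**Figure D1:**
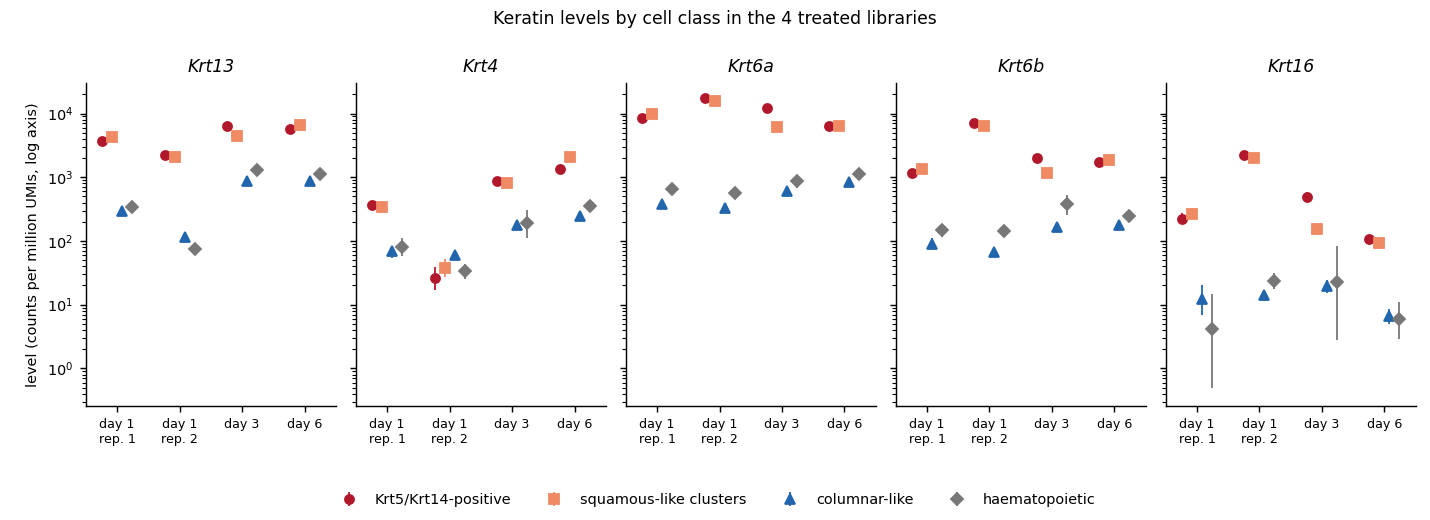
Level of each keratin (CPM, log axis) in 4 cell classes of the 4 treated libraries, with exact Poisson intervals as bars. The positive and squamous-like cells sit above the columnar-like and haematopoietic cells for every keratin and library except Krt4 in day 1 replicate 2, at 26.4 CPM in positive cells.

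The design asked in which epithelial compartment the 5 keratins were expressed, and positive cells were compared with columnar-like cells within each library by edgeR's quasi-likelihood test on summed counts. All 5 were higher in the positive cells, where 11.5% of the 12705 genes tested were called higher and 13.8% lower. Krt16 differed by 5.13 ± 0.52 on the log2 scale (SE, n = 4 libraries, edgeR adjusted p = 1.17e-05). Krt6a differed by 4.38 ± 0.42 (edgeR adjusted p = 8.01e-06) and Krt6b by 4.20 ± 0.52 (edgeR adjusted p = 5.46e-05). For the suprabasal pair, the difference was 3.36 ± 0.29 for Krt13 (edgeR adjusted p = 3.31e-06) and 1.69 ± 0.43 for Krt4 (edgeR adjusted p = 0.0104). Krt13, Krt6a, Krt6b and Krt16 were called in all 13 alternative settings. The Krt4 call was not: the difference stayed positive but missed the threshold without the block for library (edgeR adjusted p = 0.170), in DESeq2 (adjusted p = 0.0934), and in edgeR without day 1 replicate 1 (adjusted p = 0.0661), without day 3 (adjusted p = 0.0883) or without the Psca cluster described below (adjusted p = 0.0538).

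Beyond columnar cells, the positive cells were set beside 7 or 8 other cell classes per library, each without its own positive cells. The haematopoietic clusters were pooled as 1 class, and the erythroid-like cells were left out. The keratin level of positive cells was above each of these classes for Krt13, Krt6a, Krt6b and Krt16 in all 4 libraries and for Krt4 in 3. For Krt13 the highest of these classes was at 548, 117, 1316 and 1140 CPM, in Paneth-like, columnar-like, haematopoietic and endothelial-like cells respectively. The erythroid-like cells of day 1 replicate 2 were at 119 CPM of Krt13. The neutrophil-like cells of day 3, part of the haematopoietic class, were at 1436 CPM. For Krt6a the highest of these classes was at 865, 562, 1599 and 1120 CPM. Some of the highest other levels rested on a single cell. Krt6b was at 859 CPM in the day 3 endothelial-like cells, where 1 cell of 19714 UMIs held 273 of the 379 UMIs of the gene, and was at 251 CPM without it. The same class and library had Krt16 at 81.6 CPM, with 24 of its 36 UMIs in 1 cell, and at 28.5 CPM without that cell. In the enteroendocrine-like cells of day 1 replicate 2, Krt6b was at 170 CPM with 26 of its 36 UMIs in 1 cell, and at 48.4 CPM without it.

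The levels outside the squamous-like cells differed between libraries. Krt13 in haematopoietic cells was at 9.45% and 3.41% of the positive level in the day 1 replicates and at 20.6% and 19.7% on day 3 and day 6. For Krt16 these shares were 1.84%, 1.07%, 4.64% and 5.56%. The ratio of Krt4 to Krt13 UMIs differed between positive cells and the rest in day 1 replicate 2, at 0.0120 in positive cells against 0.509 in columnar-like and 0.447 in haematopoietic cells. On day 6 it was 0.236 in positive, 0.286 in columnar-like and 0.310 in haematopoietic cells, which are close to one another.

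In the untreated stroma library, Krt13 and Krt4 had 1 UMI each in 1095 cells and 5796058 UMIs. Krt6b had none, which allows up to 0.636 CPM (upper end of the exact Poisson interval). Krt6a and Krt16 were not among the genes listed for that library, and neither was Krt5. Krt14 had 8 UMIs. That library was dissociated to remove the epithelium, so it gives no level for normal colonic epithelium, although 60.7% of its cells still carried UMIs of the columnar keratin Krt8.

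The share of a keratin's UMIs that lay in positive cells differed by keratin and library. Positive cells made up 8.71%, 5.42%, 3.74% and 24.8% of all UMIs, and held 52.6%, 57.5%, 16.0% and 56.2% of the Krt13 UMIs. For Krt4 they held 31.3%, 3.41%, 10.8% and 43.0%, below their share of all UMIs in day 1 replicate 2. They held 63.8%, 72.7%, 28.3% and 63.4% of the Krt6a and 51.4%, 82.8%, 18.97% and 63.7% of the Krt6b UMIs. For Krt16 they held 71.4%, 89.5%, 39.1% and 84.7%, and squamous-like cells held 57.8% on day 3, where few of them passed the limit. Among the positive cells themselves the keratins were also unequal. The 10% of positive cells with the most Krt13 held 76.6%, 93.1%, 42.0% and 65.8% of its UMIs, and for Krt16 the shares were 89.0%, 78.5%, 78.0% and 93.7%. For Krt14, which helped define the cells, the corresponding shares were 51.3%, 48.8%, 27.6% and 38.6%.

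The 5 squamous-like clusters, which were formed without the 5 keratins, separated cells of high and low keratin level. They are called here by genes that led them: a Trp63 cluster (with Krt17 and Col17a1, genes of basal cells), a U90926 cluster (with Krt17), a Dmkn cluster (with Krtdap), a Psca cluster (with Ltf, Spink5 and Calml3) and a Krt1 cluster (with Krt10, the keratin pair of cornifying epidermis). The libraries filled them differently. Of 378 cells of the Trp63 cluster 310 were from day 6, of 125 of the U90926 cluster 119 were from day 1 replicate 2, of 297 of the Dmkn cluster 272 were from day 3, of 298 of the Psca cluster 271 were from day 6, and of 145 of the Krt1 cluster 144 were from day 6. A cluster mostly of 1 library may be that library rather than a cell state.

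Clusters were therefore compared within a library, among those with more than 9 of its cells. In day 1 replicate 2, Krt13 was at 125 CPM in the Trp63, 482 CPM in the U90926 and 7496 CPM in the Psca cluster. On day 6 it was at 1084 CPM in the Trp63, 5471 CPM in the Krt1 and 11437 CPM in the Psca cluster. In day 1 replicate 1 it was at 915 CPM in the Trp63 and 2383 CPM in the Dmkn cluster, and the Dmkn cluster of day 3 was at 4051 CPM. The Trp63 cluster was thus the lowest for Krt13 in each of the 3 libraries where it could be compared. Krt4 on day 6 was at 283 CPM in the Trp63, 2173 CPM in the Krt1 and 3616 CPM in the Psca cluster, whereas in day 1 replicate 2 it was at 22.1 CPM in the Trp63, 56.0 CPM in the U90926 and 43.3 CPM in the Psca cluster. The Psca cluster of day 1 replicate 2 therefore had Krt13 without the Krt4 level that the same cluster showed in the other 3 libraries (871 CPM in day 1 replicate 1 from 8 cells, and 3459 CPM on day 3 from 4 cells).

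Krt6a spanned a narrower range between clusters of a library. It was at 11833 CPM in the Trp63, 10648 CPM in the U90926 and 29618 CPM in the Psca cluster of day 1 replicate 2, and at 2824 CPM in the Trp63, 6790 CPM in the Krt1 and 9526 CPM in the Psca cluster of day 6. Krt6b ranged wider, from 328 CPM in the Trp63 cluster of day 1 replicate 2 through 2173 CPM in the U90926 cluster to 22574 CPM in the 15 cells of the Psca cluster. On day 6 it was at 330 CPM in the Trp63, 2709 CPM in the Krt1 and 3080 CPM in the Psca cluster. Krt16 in day 1 replicate 2 was at 529 CPM in the Trp63, 933 CPM in the U90926 and 6009 CPM in the Psca cluster, and on day 6 at 38.4 CPM in the Trp63, 89.3 CPM in the Krt1 and 143 CPM in the Psca cluster.

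Those 15 cells were 8.02% of the squamous-like cells of day 1 replicate 2 and held 24.7% of their UMIs, with 88.8% of their Krt13, 88.0% of their Krt6b, 74.8% of their Krt16, 46.0% of their Krt6a and 28.2% of their Krt4 UMIs. On day 6 the Psca cluster held 88.2% of the Krt13 and 88.3% of the Krt4 UMIs of the squamous-like cells. Without it, Krt13 in positive cells was at 1343, 327, 5962 and 1548 CPM, and Krt6b at 525, 1121, 1881 and 592 CPM. Day 3, with 2 positive cells in that cluster, kept nearly the same levels of both, and the other 3 libraries had lower ones.

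**Figure D2:**
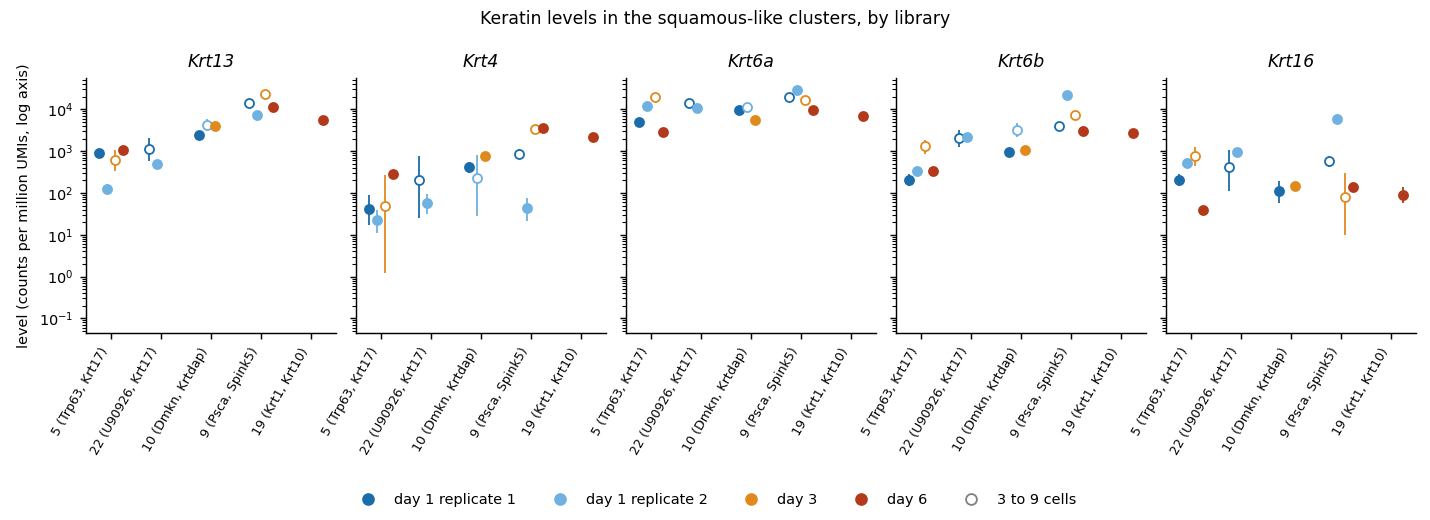
Level of each keratin (CPM, log axis) in the 5 squamous-like clusters by library, with exact Poisson intervals, and open symbols for 3 to 9 cells. Krt13 rises from 125 to 1084 CPM in the Trp63 cluster of day 1 replicate 2 and day 6 to 7496 and 11437 CPM in the Psca cluster.

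The squamous-like cells below the limit for a positive cell differed from those above it, in a way that was not the same in each library. On day 6 the 114 cells below the limit held 10399 CPM of Krt13 against 5827 in the 611 above it, and 5816 CPM of Krt4 against 1373. Their Krt16 was 8.39 CPM against 109. On day 3 the 220 cells below the limit held less of each of the 5 keratins, from 0.878 times the level of the cells above for Krt4 to 0.124 times for Krt16. In day 1 replicate 2 the 56 cells below held 0.457 times the Krt13 and 4.26 times the Krt4 level. Krt16 had the lowest of the 5 ratios in each of the 3 libraries, at 0.0392, 0.124 and 0.0768 in day 1 replicate 2, day 3 and day 6.

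The second comparison of the design set the late against the early libraries in positive cells. None of the 5 keratins passed the test, and 1 of the 8494 genes tested did (0.0118%, edgeR adjusted p under 0.05). Krt13 changed by 1.18 ± 0.64 on the log2 scale (SE, n = 2 against 2 libraries, edgeR unadjusted p = 0.0950) and Krt4 by 2.67 ± 0.95 (edgeR unadjusted p = 0.0167). Krt6a, Krt6b and Krt16 had estimates of -0.41 ± 0.74, -1.10 ± 0.83 and -1.99 ± 1.03, and these turned to 0.29, 0.84 and 0.58 without day 1 replicate 2. The edgeR adjusted p was 0.999 for each of the 5. With the kind of library (single or dual index) as a block, Krt4 passed the test (3.48, edgeR adjusted p = 0.00123, against a range of 0.00123 to 1.00 over all 16 alternatives), and 78 genes were called. An exact permutation test of 2 against 2 libraries cannot give a two-sided p below 0.3333. For 2 of the 5 keratins, Krt13 and Krt4, both late libraries lay above both early ones, which was so for 15.3% of the genes tested, and none lay wholly below, which was so for 15.1%.

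Across all squamous-like cells the order was partly another. Krt13 was at 4287, 2083, 4382 and 6538 CPM and Krt4 at 343, 37.9, 808 and 2065 CPM, so the late libraries were still above the early ones, for Krt13 by little. Krt6a was at 9925, 15898, 6054 and 6416 CPM and Krt16 at 269, 1982, 157 and 93.6 CPM, and here both late libraries lay below both early ones. Krt6b overlapped, at 1329, 6330, 1187 and 1844 CPM. The edgeR estimates were 0.94 for Krt13, 3.11 for Krt4, -0.91 for Krt6a, -1.24 for Krt6b and -3.06 for Krt16, with an edgeR adjusted p of 0.999 for each. In these cells 16.5% of the 9773 genes tested had both late libraries above both early ones and 15.3% had them below.

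The kind of library divided each group, and the change was recomputed within it. From day 1 replicate 1 to day 3, both single index, all 5 keratins had higher values in positive cells, by 1.02 (Krt13), 1.46 (Krt4), 0.72 (Krt6a), 0.99 (Krt6b) and 1.36 (Krt16) on the log2 scale. From day 1 replicate 2 to day 6, both dual index, Krt13 was higher by 1.38 and Krt4 by 5.64, while Krt6a, Krt6b and Krt16 stood at -1.48, -2.05 and -4.38. The suprabasal pair thus had the same direction in both kinds of library and the stress keratins opposite directions, as did 47.3% of all genes tested. In all squamous-like cells the single index values were 0.30, 1.50, -0.45, 0.10 and -0.51 and the dual index values 1.69, 5.79, -1.27, -1.74 and -4.36, so there the direction differed for Krt6b alone. Each of these values compares 1 library with 1 library, without replicates.

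The day 1 replicates differed more in these keratins than in most genes. Replicate 2 minus replicate 1 was -0.60 for Krt13, -3.62 for Krt4, 1.18 for Krt6a, 2.74 for Krt6b and 3.46 for Krt16, against a median of 0.46 for the size of this difference over all genes tested. Ranked by size, the differences of Krt4, Krt16 and Krt6b lay at percentiles 99.5, 99.4 and 98.8, and those of Krt6a and Krt13 at percentiles 86.5 and 61.1. For Krt4, Krt6a, Krt6b and Krt16 this difference was larger in size than the late to early estimate. The 1 gene called, Ddx3y, lies on the Y chromosome and was singled out after its values were seen. It had 33 and 40 UMIs in the positive cells of the early libraries and 0 and 1 in the late ones, where 3 counts would be 12.0 and 0.752 CPM. Xist had 0 UMIs in both early and 11 and 648 in the late libraries, so the sex of the animals and the time of treatment cannot be told apart.

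**Figure D3:**
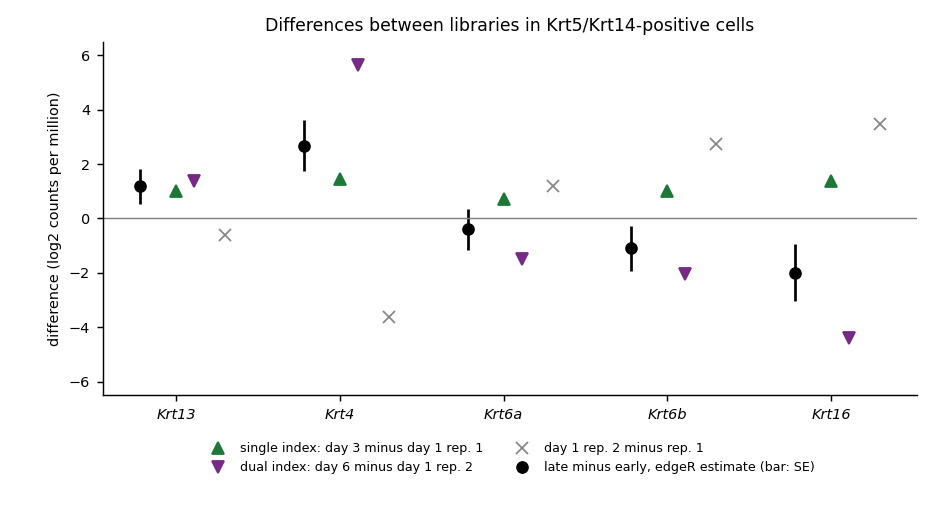
Differences in log2 CPM between libraries in Krt5/Krt14-positive cells: the edgeR estimate of late minus early with its SE, the difference within each kind of library, and that between the day 1 replicates. Krt13 and Krt4 are above 0 in both kinds of library (1.02 and 1.38, 1.46 and 5.64), and Krt6a, Krt6b and Krt16 are above 0 in the single index and below 0 in the dual index libraries.

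How many cells held each keratin was compared after every cell had been thinned to 1000 UMIs. Cells with fewer UMIs were left out, all of them from day 6, where 636 of 674 positive, 1195 of 1301 columnar-like and 474 of 487 haematopoietic cells remained. Krt6a was found in 81.0%, 99.3%, 95.3% and 87.6% of positive cells, against 52.2%, 40.6%, 57.6% and 67.1% of haematopoietic cells. Krt6b was found in 44.3%, 46.8%, 50.0% and 39.9% against 15.7%, 12.2%, 33.3% and 25.7%. Krt16 was found in 13.9%, 43.2%, 15.6% and 5.35% of positive cells and in 1.27% to 3.31% of haematopoietic cells. All 3 stress keratins were thus in more positive than haematopoietic cells in every library. On day 3, with 33 haematopoietic cells, the exact binomial intervals still overlapped for Krt6b (37.2% to 62.8% against 18.0% to 51.8%). They overlapped there for Krt16 too (7.76% to 26.9% against 0.0767% to 15.8%). Krt13 was in 60.8% and 23.7% of positive cells of the early libraries, against 35.8% and 6.97% of haematopoietic cells. On day 3 and day 6 it was in 78.1% (exact binomial interval 66.0% to 87.5%) and 77.5% (74.1% to 80.7%) of positive cells against 72.7% (54.5% to 86.7%) and 69.4% (65.0% to 73.5%). Krt4 was in 17.7%, 3.60%, 29.7% and 40.3% against 6.72%, 3.83%, 21.2% and 32.3%. The intervals of the suprabasal pair overlapped between positive and haematopoietic cells on day 3. On day 6 they did not overlap for Krt13 and did for Krt4 (36.4% to 44.2% against 28.1% to 36.7%). Before thinning, the cells with a Krt13 UMI were 83.5%, 38.8%, 92.2% and 97.9% of the positive cells, with median depths of 2783, 2876, 3134 and 5382 UMIs.

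Counted together in thinned cells, a positive cell held a median of 2, 2, 3 and 3 of the 5 keratins. At least 3 of them were in 38.0%, 35.3%, 57.8% and 50.9% of positive cells, against 4.10%, 1.18%, 12.8% and 29.1% of columnar-like and 4.48%, 1.39%, 24.2% and 27.6% of haematopoietic cells. At least 1 suprabasal and 1 stress keratin were in 55.7%, 25.9%, 76.6% and 75.9% of positive cells, against 26.9%, 4.53%, 63.6% and 59.9% of haematopoietic cells. Stress keratins without a suprabasal one were in 30.4%, 73.4%, 20.3% and 14.0% of positive cells against 32.1%, 44.4%, 18.2% and 15.2% of haematopoietic cells, above this background in day 1 replicate 2 and close to it in the other 3 libraries. Positive cells had suprabasal ones without a stress keratin in 5.06%, 0%, 3.13% and 6.76% of cases. In day 1 replicate 2 most positive cells thus had UMIs of the stress keratins alone.

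**Figure D4:**
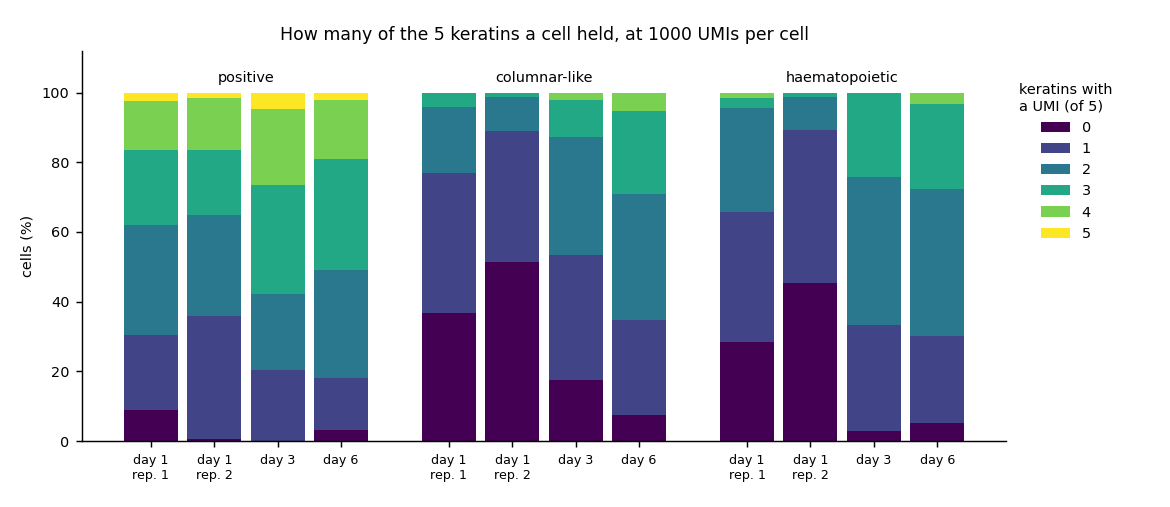
Share of cells (%) with UMIs of 0 to 5 of the keratins, each cell thinned to 1000 UMIs, by cell class and library. Cells with 3 or more keratins make up 35.3% to 57.8% of the positive cells and 1.18% to 29.1% of the columnar-like cells.

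Of the 6 pairs of keratins without Krt6a, 5 were found in the same positive cell more often than the product of their single shares in all 4 libraries. The exception was Krt4 with Krt6b, at 0.855 times the product in day 1 replicate 2, from 2 cells with both. The excess was largest for Krt6b with Krt16, at 1.23 to 1.84 times the product, and for Krt13 with Krt16, at 1.14 to 1.83 times. Krt13 with Krt4, the suprabasal pair, was at 1.12 to 1.68 times, and Krt13 with Krt6b at the same range. Krt4 with Krt16 was at 1.02 to 1.39 times. Some of these excesses rested on few cells. After thinning, Krt4 was in 5 of the 139 positive cells of day 1 replicate 2. Krt16 was in 11 and 60 positive cells of the day 1 replicates, 10 on day 3 and 34 on day 6. For pairs with Krt4 or Krt16, a small excess in a library therefore says little. The 4 pairs with Krt6a were at 1.01 to 1.13 times, which says little because Krt6a alone was in 81.0% to 99.3% of positive cells and leaves almost no room above the product. Of the 6 pairs, 1 was above the product in all 4 libraries in columnar-like cells and 0 were in haematopoietic cells. After thinning, Krt16 was in only 2, 19, 1 and 6 haematopoietic cells, and in 2 columnar-like cells of day 1 replicate 1. Pairs with Krt16 could therefore hardly exceed the product in all 4 libraries there, and these counts say little about them. Cells of a library are not replicates, so no test was made of these ratios. Without thinning, where deeper cells hold more of every gene, 4 of the 6 pairs were above the product in all 4 libraries.

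**Figure D5:**
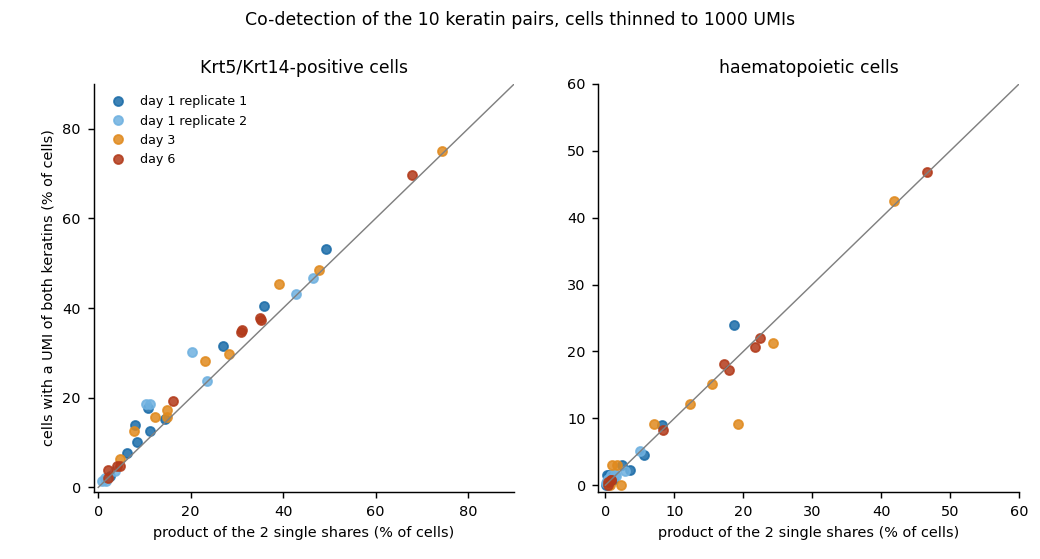
Share of cells with UMIs of both keratins of a pair (%) against the product of their single shares (%), for 10 pairs in 4 libraries, each cell thinned to 1000 UMIs; the line marks equality. In positive cells the points lie on or above the line but for Krt4 with Krt6b in day 1 replicate 2, and in haematopoietic cells they lie on both sides.

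Across the positive cells of a library, levels were also compared by Pearson's r of log-scaled UMIs, as a description without a test, since cells of a library share its depth and its free RNA. Krt6a and Krt6b had r of 0.51 to 0.64 over the 4 libraries, the range being that of the libraries. Krt13 had r of 0.41 to 0.65 with Krt6b and 0.39 to 0.58 with Krt6a, and Krt16 had r of 0.30 to 0.59 with Krt6a and 0.31 to 0.62 with Krt6b. Krt4 was less tied to the rest, at 0.23 to 0.44 with Krt13 and -0.02 to 0.30 with Krt6a. Against the basal keratin Krt17 the suprabasal pair was negative in every library, at -0.37 to -0.21 for Krt13 and -0.28 to -0.23 for Krt4, and Krt6a was negative against Krt15 at -0.66 to -0.15. The correlation of each keratin with the depth of the cell was at most 0.33.

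Of the 6729 genes with UMIs in at least 5% of positive cells, those with the highest mean r over the 4 libraries were taken as most like each keratin. Krt13 was most like Calml3, a calmodulin-like protein of differentiating keratinocytes (0.54), Ly6d (0.53), a surface protein of stratified epithelium, and Spink5, an inhibitor of epidermal proteases (0.50). For Krt4 the nearest gene was Krt13 (0.33), followed by Lrmp (0.33) and Slurp1 (0.31). Krt6a was nearest to Krt6b (0.58), Gsto1 (0.51) and Anxa1 (0.50), and Krt16 to Krt6a (0.43), Krt6b (0.40) and Krt14 (0.35). The nearest genes of Krt6b were Krt6a and Krt13 (0.49).

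Other genes of stratified epithelium were read from the same tests by 4 lists, whose counts are descriptions because these genes helped to form the columnar-like clusters. Of 13 basal genes tested, 8 were higher in positive than in columnar-like cells and 0 lower, with a median difference of 1.80 on the log2 scale against -0.02 over all genes tested. The most abundant were Krt14 and Krt5, which defined the cells, followed by Krt17 and Krt15, whose differences were 5.19 and 1.70. Of 40 genes of the suprabasal and cornified layers, 28 were higher and 5 lower, with a median of 1.93. The most abundant were Sprr2a1 and Sprr2a2, cornified envelope proteins, which were lower (-1.32 and -1.41), and Anxa1 (1.65) and Sfn (1.35), which were higher. Members that share reads with near-identical copies, as the Sprr2a genes do, are uncertain. Of 23 genes of the wound and stress response of keratinocytes, 9 were higher and 0 lower, with a median of 0.54. Krt17 was the most abundant of them. Slpi (-0.23) and S100a9 (2.17) were also among the most abundant, and of this pair S100a9, an alarmin also made by neutrophils, passed the test. Of 30 regulators of squamous differentiation, 18 were higher and 4 lower, with a median of 0.95, among them Pitx1 (4.97) and Trp63 (5.51), the master regulator of stratified epithelium. Elf3 (-0.90) was lower, and Ehf had a difference of 0.30 that missed the threshold (edgeR adjusted p = 0.426).

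In the late to early comparison no gene of the 4 lists passed the test, and 2 of 13, 10 of 34, 5 of 18 and 0 of 29 had an unadjusted p under 0.05 in edgeR, against 3.53% of all genes tested. The medians were -0.16 for the basal, 0.16 for the suprabasal and cornified, -0.87 for the wound and stress and 0.10 for the regulator list, against 0.02 over all genes. Both late libraries lay above both early ones in 1, 10, 0 and 6 genes of the lists and below them in 1, 8, 6 and 1. In the wound and stress list 2 of 18 estimates were above 0 and the others below, as were the estimates of Krt6a, Krt6b and Krt16 in the same cells. These estimates pool both kinds of library, and those of Krt6a, Krt6b and Krt16 turned above 0 without day 1 replicate 2. From day 1 replicate 1 to day 3 genes of the list went both ways. Krt17 went from 690 to 2496 and Slpi from 563 to 328 TMM-scaled CPM.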

How the data were processed

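The 5 inDrop libraries of mouse colon were used. The authors deposited raw UMI counts per barcode and gene, made with dropEst on GRCm38, without normalization. Cells needed at least 500 genes and at most 15% mitochondrial counts, the limits the authors state, which left 7396 treated cells (5124405 to 16786230 UMIs per library) and 1095 stroma cells. Cells were clustered together in scanpy 1.11.5 with leidenalg 0.10.2 (2000 variable genes without the 5 keratins, 20 components, 20 neighbours, resolution 1, no batch correction). Clusters were called "-like" from marker lists. No doublets were removed, and Scrublet called 3, 3, 6 and 0 cells, under 0.5%, so it did not serve as a doublet check. Counts were summed per library and class and tested with edgeR 4.0.16 (TMM, filterByExpr, quasi-likelihood, Benjamini-Hochberg over all genes, library as a block between classes) in R 4.3.3, with DESeq2 1.42.0 as an alternative. CPM are raw counts scaled to 1000000 UMIs of a class, with exact 95% Poisson intervals, and shares have exact binomial ones. PCR duplicates were collapsed by UMI, and intervals and floors cover counting error only.

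The authors call the libraries of a group biological replicates, but the labels tie none to an animal, and p-values measure the spread between these libraries. On simulated counts (log2 change of 2, dispersion 0.05) the late to early test called 149 of 185 changed genes tested and 4 unchanged ones of 8119 genes, and the positive to columnar test called 187 of 200 and 4 of 11548. The keratins were always named, and up to 4 genes per list, highest level first; 1 gene this rule names is not reported here. The members and lists were chosen with earlier results of these data known. Alternatives without the Psca cluster (cluster 9), within squamous-like clusters and with the unnamed cluster among the columnar cells were chosen after seeing the data. Pairwise identity used edlib 1.3.9.post1 alignments of GENCODE vM21 transcripts.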

Additional observations from a re-analysis of the deposited data

Results flagged for a closer look

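In positive cells, 3 keratins had opposite directions in the single index and the dual index libraries. From day 1 replicate 1 to day 3 (single index) the log2 difference was 0.72 for Krt6a, 0.99 for Krt6b and 1.36 for Krt16. From day 1 replicate 2 to day 6 (dual index) it was -1.48, -2.05 and -4.38. Each side holds 1 library per time, so the difference between the directions was not tested, and the kind of library, the day (3 or 6) and the early replicate cannot be told apart. Of all genes tested, 47.3% had opposite directions in the same way. No group held 4 or more libraries, so a single outlying library could not be looked for within a group.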

How the results depend on the processing

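The late to early test in positive cells called 1 gene, and the number depended on the setting: 16 genes in DESeq2, 96 without a filter on low counts, 2 with the 95th percentile as the limit, and 78 with the kind of library as a block. It called 0 genes in edgeR in all squamous-like cells (389 at an unadjusted p under 0.05), 0 with cells thinned to 1000 UMIs (99) and 0 without cluster 9 (263). Leaving out 1 library gave 54 genes without day 1 replicate 1, 20 without day 1 replicate 2, 9 without day 3 and 0 without day 6 (754 at an unadjusted p under 0.05), and in squamous-like cells 36, 10, 33 and 0 (1448). The keratin estimates kept direction and call in 69 of 80 values. Krt4 passed the test without a filter (2.71, edgeR adjusted p = 0.0219), with the block (3.48, edgeR adjusted p = 0.00123), without day 1 replicate 1 (5.41, edgeR adjusted p = 0.0129), and in squamous-like cells without day 1 replicate 1 (5.32, edgeR adjusted p = 0.0410), where Krt16 passed too (-3.88, edgeR adjusted p = 0.0399). Over all 16 alternatives the adjusted p of Krt4 ran from 0.00123 to 1.00 and that of Krt16 from 0.0399 to 1.00. Leaving out 1 library in positive cells gave -1.01 to 0.29 for Krt6a, -1.91 to 0.84 for Krt6b and -3.53 to 0.58 for Krt16. The direction reversed for Krt6a without day 1 replicate 2 (0.29) and without day 6 (0.01), for Krt6b without day 1 replicate 2 (0.84, and 0.38 in squamous-like cells) and without cluster 9 (0.74), and for Krt16 without day 1 replicate 2 (0.58); the cause was not tested. The positive to columnar test called 3221 genes, 1310 with thinned cells and 1258 without the library block, and 2280 to 2934 leaving out 1 library. Of its 65 keratin values 60 kept direction and call, and the other 5 were the Krt4 calls lost, with estimates of 1.08 to 2.20. The 30 mean levels moved by less than 1 SD between libraries. Pairs co-detected above the product numbered 9 of 10, and 4 without thinning, 6 with the 95th percentile as the limit, 7 in squamous-like cells and 8 without likely doublets. No paired analysis was possible because the late libraries carry no replicate number; the block for the kind of library stands in its place. Depth limits Krt4 in day 1 replicate 2 (24 UMIs) and Krt16 outside the positive cells.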
